A study of Homo sapiens with 14 samples.

Results

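The genes described here were 41 genes of peptide presentation on MHC class I and of the interferon response, chosen by gene symbol from a fixed list and followed through RNA-seq counts of the neuroblastoma cell line CHP-134, which carries amplified MYCN. The list held 4 class I heavy chains, their light chain B2M, 4 genes of peptide transport and loading, 2 peptide-trimming enzymes, the transactivator NLRC5, 3 immunoproteasome subunits, 2 subunits of the proteasome activator PA28, 3 interferon receptor chains, 6 signal transducers or regulatory factors, 3 nucleic acid sensors or adaptors and 12 interferon-stimulated genes. There were 14 libraries in 2 count tables. In one table, CHP-134 cells transduced with lentivirus to express either EGFP (n = 3) or OmoMYC (n = 3) from a Tet-On promoter were kept with 1 µg/ml doxycycline for 3 days in tetracycline-approved serum, so that both arms carried a transgene and the drug. OmoMYC is a MYC-derived protein that interferes with MYC family function, and the arms were separate G418-selected lines. In the other table, parental CHP-134 cells without either transgene were given 500 nM dTAG47 (n = 4) or DMSO (n = 4) for 18 h. dTAG47 is a bifunctional molecule that brings FKBP-tagged proteins to an E3 ligase, and these parental cells had no tagged protein, so this was the control for the compound alone. The OmoMYC table listed 33 of the 41 symbols under 35 identifiers among 17810 genes, and the parental table listed all 41 under 42 identifiers among 19143 genes. After the filter on low counts, 24 identifiers were tested in OmoMYC against EGFP and 27 in dTAG47 against DMSO.

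MHC class I molecules show peptides from inside the cell to cytotoxic T cells. The proteasome, or its interferon-inducible form with the subunits PSMB8, PSMB9 and PSMB10, cuts proteins into peptides, TAP1 and TAP2 pump the peptides into the endoplasmic reticulum, and tapasin (TAPBP) helps load them onto a heavy chain paired with B2M. Type I and type II interferons raise most of these genes through receptors, STAT proteins and IRF proteins that bind interferon-stimulated response elements, and neuroblastoma cells are known for low surface class I.

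The letters GAAANNGAA, the core of an interferon-stimulated response element, were searched on both strands of RefSeq promoter windows (GRCh38.p14) that ran from 250 bases before to 50 bases after each annotated start. The letters occurred in 8.10% of 34943 windows and in at least 1 window of 21 of the 33 list genes that had one. Here and below the percentages are by window and the counts by gene, so a gene with several windows had more chances to match. The palindromic letters TTCNNNGAA, the core of a STAT site, occurred in 7.66% of all windows and for 8 of the 33 genes, and the E-box CACGTG, to which MYC-MAX dimers bind, in 7.23% of all windows and for 2 of the 33 genes, TAPBPL and IRF9. The upstream stretches below are shown for 4 genes that changed with OmoMYC and for ISG15, which was near 0 in both tables, with the GAAANNGAA matches on either strand in capitals and each sequence 5′ to 3′ on the strand of its gene.
IFI6, chr1:27672265-27672360, minus strand: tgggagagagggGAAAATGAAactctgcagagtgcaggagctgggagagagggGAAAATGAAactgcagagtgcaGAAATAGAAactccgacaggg
IFIT1, chr10:89392496-89392541, plus strand: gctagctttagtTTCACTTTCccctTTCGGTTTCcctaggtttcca
B2M, chr15:44711361-44711399, plus strand: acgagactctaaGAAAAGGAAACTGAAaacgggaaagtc
PSME2, chr14:24146618-24146650, minus strand: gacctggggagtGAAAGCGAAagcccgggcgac
ISG15, chr1:1013372-1013416, plus strand: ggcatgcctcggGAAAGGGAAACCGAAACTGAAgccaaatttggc
The IFI6 window held 3 matches and the IFIT1 window held 2, and these genes changed in opposite directions with OmoMYC (below). The 2 matches of B2M and the 3 of ISG15 overlapped one another, and PSME2 had 1 match that began 28 bases before the start. The window of STAT2 and the windows of IFNGR1, genes that also changed with OmoMYC (below), held none of these motifs. A match is a description of letters and was not tested as a binding site.

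The libraries had 28060817 to 32001315 counts with EGFP, 29288048 to 38358128 with OmoMYC, 40861430 to 51199800 with DMSO and 43019725 to 53451641 with dTAG47. MYC had 16 to 20 counts in each EGFP library and 15040 to 20295 in each OmoMYC library, where reads of the MYC-derived transgene cannot be told apart from those of the gene. MYCN was 2408 to 2900 counts per 1e+06 library counts (CPM) with EGFP and 2182 to 2312 CPM with OmoMYC. Adrenergic neuroblastoma markers summed to 1630 to 1973 CPM in the engineered lines and 1656 to 1808 CPM in the parental cells, with 10 of 10 genes listed in each table. Markers of leukocytes, which express class I and interferon-response genes strongly, summed to 5.14 to 5.75 CPM with EGFP, 6.92 to 7.83 CPM with OmoMYC, 7.41 to 9.33 CPM with DMSO and 7.72 to 8.22 CPM with dTAG47, and LYZ had at most 3 counts in every library. The leukocyte sum was thus higher in every OmoMYC library than in every EGFP library. So was the sum of 4 endothelial markers, at 0.276 to 0.358 CPM with EGFP and 1.09 to 2.29 CPM with OmoMYC. Of the 13 leukocyte markers, 10 were listed in the engineered table, led by CD8A at 1.33 to 3.66 CPM. KDR led the endothelial markers there, at 0 to 1.81 CPM, while PECAM1 and VWF had at most 3 counts. Fibroblast markers overlapped, at 78.8 to 93.1 CPM and 72.8 to 85.3 CPM. The part of these sums in the differences below was not tested. EGFP replicate 1 stood apart from the other EGFP libraries. A chi-square of the counts, divided by its degrees of freedom, was 21.0 and 42.1 between replicate 1 and the others. It was 7.94 between EGFP replicates 2 and 3, and 2.79 to 8.58 between the OmoMYC replicates. The same measure in DMSO was 2.64 between replicates 1 and 2, 3.15 between replicates 3 and 4, and 8.70 to 11.3 across these pairs. In dTAG47 it was 2.66 between replicates 3 and 4 and 5.68 to 22.4 for the other pairs, with replicate 2 the furthest from replicates 3 and 4. Fewer cells with a transcript and less transcript per cell cannot be told apart in these bulk libraries.

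The 2 tables did not count the MHC region alike, which bears on the 9 list genes that lie in it. The interval from the start of HLA-F to the end of TAPBP, chr6:29690552-33282061 of GRCh37, took 0.686% to 0.769% of all counts in the parental libraries, over 146 identifiers, and 0.000976% to 0.00140% in the engineered libraries, over 38 identifiers. Of 28 identifiers in the interval with at least 10 CPM in DMSO that were listed in both tables, 27 were below 0.1 of that level in EGFP, against 193 of 9330 identifiers (2.07%) elsewhere. Genes that every cell uses were among them. The ribosomal protein gene RPS18 had 38357 to 55760 counts per parental library and 0 to 1 per engineered library, and the tubulin gene TUBB had 88178 to 118172 counts per parental library and 0 to 2 per engineered library under the same identifier, while another TUBB identifier held 1554 to 2778. How the reads of this interval were lost or assigned in the engineered table was not tested, and no level of a gene in it can be read from that table. Of 23 list genes outside the interval that were tested in both tables, 21 had EGFP levels within 2-fold of DMSO. The exceptions were IFITM2 (3.04 CPM in EGFP, 1.19 CPM in DMSO) and IFITM3 (2.08 and 0.743 CPM). IFIT2 and IFIT3, tested in the parental table alone, were at 0.136 and 0.182 CPM in EGFP and 0.642 and 0.583 CPM in DMSO. All these levels come from tables made separately.

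**Figure D1:**
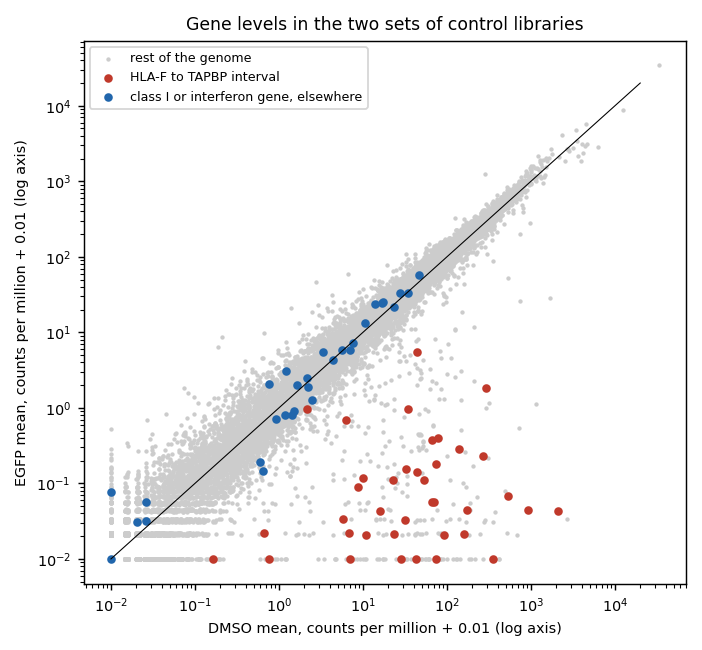
Mean level of each gene listed in both tables in the DMSO libraries (x axis) and the EGFP libraries (y axis), in CPM plus 0.01 on log axes, with genes from HLA-F to TAPBP in red, list genes elsewhere in blue and all others in grey. Of the red genes at 10 CPM or more in DMSO, 27 of 28 sit below 0.1 of their DMSO level, while most blue genes lie closer to the line of equal level, with IFITM2 and IFITM3 above it and IFIT2 and IFIT3 below it.

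In OmoMYC against EGFP, which asked how blocking MYC function changes expression, the list moved in both directions. By edgeR's quasi-likelihood test with Benjamini-Hochberg adjustment over all tested genes, 5 of the 24 tested identifiers were higher (IFI6, STAT2, PSME1, PSME2 and IFITM2), 4 were lower (HLA-F, B2M, IFNGR1 and IFIT1) and 15 did not pass. That is 37.5% of the tested identifiers, where 53.0% of all 13803 tested genes passed, 27.3% higher and 25.7% lower. The levels of EGFP and OmoMYC libraries did not overlap for 14 of the 24, against 62.3% of all tested genes. The median log2 fold change of the list was -0.0046, against 0.012 over all tested genes, and the median size of change was 0.34, against 0.31. A change past 1.5-fold was called for 4 identifiers, IFI6, STAT2, HLA-F and IFIT1. HLA-F lies in the MHC interval, so its call cannot be read as a change in its level. The plot of fold changes shows the spread around 0 in this comparison and its near absence with dTAG47.

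**Figure D2:**
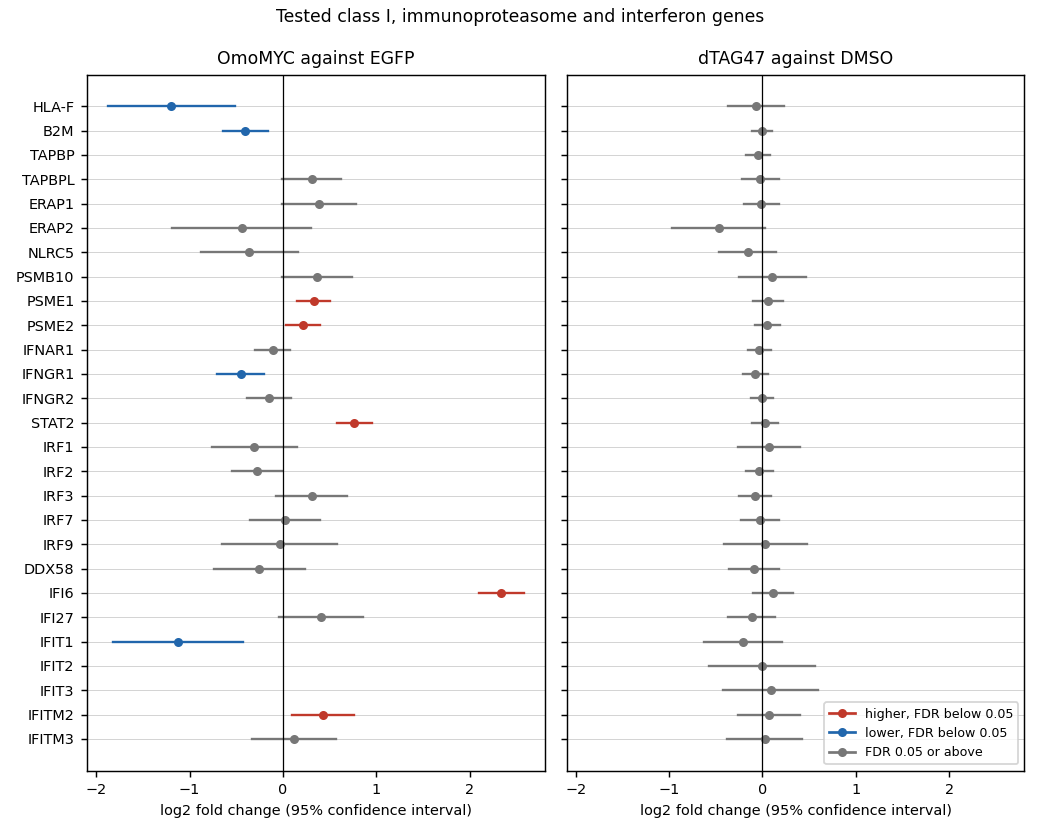
Log2 fold change with its 95% confidence interval for each tested gene, in the order of the roles, for OmoMYC against EGFP (left) and dTAG47 against DMSO (right); red is higher, blue is lower and grey did not pass an FDR of 0.05. IFI6 stands alone at 2.34 on the left, and on the right the points run from -0.47 to 0.11.

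Among the class I heavy chains, HLA-F, a nonclassical chain with little surface expression in most cells, was the single one tested in the engineered lines. HLA-F (ENSG00000204642.9) was at 0.663, 1.15 and 1.03 CPM in the EGFP libraries and 0.477, 0.337 and 0.428 CPM in the OmoMYC libraries. All OmoMYC libraries lay below all EGFP libraries, and the log2 fold change was -1.19 (SE 0.31, FDR 0.00783), from 13 to 32 counts per library. HLA-F is the first gene of the interval described above and shares exonic bases with the antisense gene HLA-F-AS1, so this call rests on few counts in a region that the table does not count as the parental table does. A second HLA-F identifier had 2 to 9 counts per library and was not tested. HLA-C appeared under an identifier that is not on the primary chromosomes of the annotation, with 0 counts in each EGFP library and 4, 1 and 2 in the OmoMYC libraries. HLA-B and HLA-E were not listed in the engineered table. B2M, the light chain, lies outside the region, at chr15:45003556-45011049 of GRCh37. B2M was at 66.6, 53.9 and 50.4 CPM with EGFP and 44.3, 45.6 and 39.5 CPM with OmoMYC. It was lower in every OmoMYC library, with a log2 fold change of -0.40 (SE 0.11, FDR 0.0100), and replicate 1 was the highest EGFP library. Leaving out each library in turn gave -0.52 to -0.29, called each time.

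Of the genes of peptide loading, TAPBP lies in the MHC interval and had 2 to 12 counts per engineered library, summed over its 2 identifiers, while TAP1 and TAP2 were not listed. The TAPBP-related chaperone TAPBPL, which edits the loaded peptide, was at 3.75, 4.12 and 5.20 CPM with EGFP and 5.56, 5.22 and 5.39 CPM with OmoMYC. The groups did not overlap but the gap was narrow, and the log2 fold change of 0.31 (FDR 0.0897) did not pass. The aminopeptidases ERAP1 and ERAP2, which trim peptides to length, had log2 fold changes of 0.39 (FDR 0.0879) and -0.44 (FDR 0.294). ERAP1 was at 7.13, 6.30 and 4.03 CPM with EGFP and 7.47, 8.05 and 7.33 CPM with OmoMYC, and ERAP2 at 0.883, 0.466 and 1.03 CPM with EGFP and 0.409, 0.649 and 0.691 CPM with OmoMYC. ERAP1 shares exonic bases with CAST on the other strand, and whether the counting used strand is not given in the sources used here. NLRC5, which drives transcription of class I genes, averaged 0.899 ± 0.109 CPM in the EGFP libraries and 0.698 ± 0.0493 CPM in the OmoMYC libraries (mean ± SD of 3), a log2 fold change of -0.36 that did not pass (FDR 0.217).

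Both PA28 subunits were higher with OmoMYC. Its subunits PSME1 and PSME2 form a ring that opens the proteasome and favours peptides fit for class I, and the genes lie close together on chromosome 14. PSME1 was at 25.1, 24.0 and 23.0 CPM with EGFP and 30.0, 31.1 and 29.3 CPM with OmoMYC, a log2 fold change of 0.33 (SE 0.08, FDR 0.00538). PSME2 was at 25.2, 27.1 and 23.8 CPM with EGFP and 30.0, 29.2 and 29.2 CPM with OmoMYC, a log2 fold change of 0.22 (SE 0.08, FDR 0.0434). Both were higher in every OmoMYC library by less than 1.5-fold, and the call of PSME2 was lost when any 1 of the 6 libraries was left out, with adjusted p-values of 0.0525 to 0.169. The immunoproteasome subunit PSMB10, the inducible counterpart of PSMB7, was at 2.02, 1.72 and 1.86 CPM with EGFP and 2.69, 2.10 and 2.47 CPM with OmoMYC, which did not pass (log2 fold change 0.36, FDR 0.0911). PSMB8 and PSMB9, which lie beside TAP1 in the MHC interval, were not listed in the engineered table. A set of 6 other proteasome genes held PSMB5, PSMB6, PSMB7, PSME3, PSME4 and the assembly factor POMP. Of these, 0 were higher and 3 were lower with OmoMYC, namely POMP, PSME4 and PSMB5. Of all tested genes, 27.3% were higher and 25.7% lower.

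Of the receptor chains, IFNGR1, the ligand-binding chain of the interferon-gamma receptor, was lower. IFNGR1 was at 38.6, 30.4 and 29.8 CPM with EGFP and 24.7, 25.6 and 21.8 CPM with OmoMYC. All OmoMYC libraries lay below all EGFP libraries, with a log2 fold change of -0.45 (SE 0.11, FDR 0.00669). Its partner IFNGR2 was at 18.7, 22.9 and 23.8 CPM with EGFP and 21.2, 18.8 and 18.9 CPM with OmoMYC, which overlapped (log2 fold change -0.15, FDR 0.253). IFNAR1, a chain of the type I interferon receptor, averaged 33.0 ± 2.43 CPM in the EGFP libraries and 30.6 ± 1.67 CPM in the OmoMYC libraries (mean ± SD of 3), with an FDR of 0.303.

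STAT2, which joins IRF9 in the complex that binds interferon-stimulated response elements, was at 23.6, 24.5 and 25.8 CPM with EGFP and 45.2, 41.5 and 39.1 CPM with OmoMYC. The groups were far apart, with a 1.70-fold rise (log2 fold change 0.77, SE 0.08, FDR 5.07e-05) that was called in all 14 alternatives. IRF9 was low, averaging 0.695 ± 0.165 CPM in the EGFP libraries and 0.680 ± 0.0957 CPM in the OmoMYC libraries (mean ± SD of 3; log2 fold change -0.03, interval -0.65 to 0.58). The 4 other regulatory factors did not pass. IRF1, an activator that interferon-gamma induces, was at 1.55, 2.18 and 2.27 CPM with EGFP and 1.74, 1.76 and 1.32 CPM with OmoMYC (log2 fold change -0.30, FDR 0.239). IRF2, which competes with IRF1, had a log2 fold change of -0.28 (FDR 0.0782), IRF3, activated by nucleic acid sensing, of 0.31 (FDR 0.153) and IRF7, the amplifier of type I interferon, of 0.02 (FDR 0.915). The RNA sensor DDX58 (RIG-I) averaged 2.45 ± 0.722 CPM in the EGFP libraries and 2.08 ± 0.288 CPM in the OmoMYC libraries (mean ± SD of 3; FDR 0.351), and both IRF9 and DDX58 share exonic bases with other annotated genes, so their counts are uncertain. The RNA sensor IFIH1 had 2, 0 and 0 counts with EGFP and 2, 7 and 11 with OmoMYC, and TMEM173, the adaptor STING of DNA sensing, had 0, 0 and 0 against 0, 2 and 1, so both stayed under the filter.

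The interferon-stimulated genes split. IFI6, which encodes a small membrane protein of mitochondria and endoplasmic reticulum that limits cell death and some viruses, was at 5.08, 5.69 and 5.75 CPM with EGFP and 31.1, 27.0 and 25.6 CPM with OmoMYC. Every OmoMYC library lay above every EGFP library, for a 5.06-fold rise (log2 fold change 2.34, SE 0.11, FDR 8.34e-08) that stayed between 2.25 and 2.37 on the log2 scale in all 14 alternatives. The annotation gives 216 exonic bases that IFI6 shares with LINC02574 on the same strand. IFIT1, which binds foreign RNA caps and whose promoter stretch is shown above, was at 0.946, 0.716 and 0.723 CPM with EGFP and 0.409, 0.441 and 0.230 CPM with OmoMYC. It was lower in every OmoMYC library (log2 fold change -1.12, SE 0.31, FDR 0.0120), on 7 to 30 counts per library. IFITM2, a membrane protein that hinders viral entry, was at 2.62, 3.19 and 3.31 CPM with EGFP and 3.82, 3.84 and 4.64 CPM with OmoMYC (log2 fold change 0.43, SE 0.15, FDR 0.0319). IFITM3 was at 1.51, 2.51 and 2.20 CPM with EGFP and 2.18, 2.02 and 2.53 CPM with OmoMYC, which overlapped (FDR 0.654), and these paralogs are close in sequence, so shared reads make both uncertain. The IFITM2 call was lost without EGFP replicate 1 or 2 or any 1 OmoMYC library, with adjusted p-values of 0.0511 to 0.159. IFI27 was at 1.10, 1.18 and 1.55 CPM with EGFP and 1.64, 1.56 and 1.91 CPM with OmoMYC, a log2 fold change of 0.41 that did not pass (FDR 0.112). ISG15, a ubiquitin-like modifier that interferon induces strongly in most cells, had 0 to 2 counts per engineered library. IFIT2 had 3 to 7 counts, IFIT3 0 to 8, IFITM1 0 to 4 and OAS3 0 to 2, while MX1 and OAS1 were not listed.

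**Figure D3:**
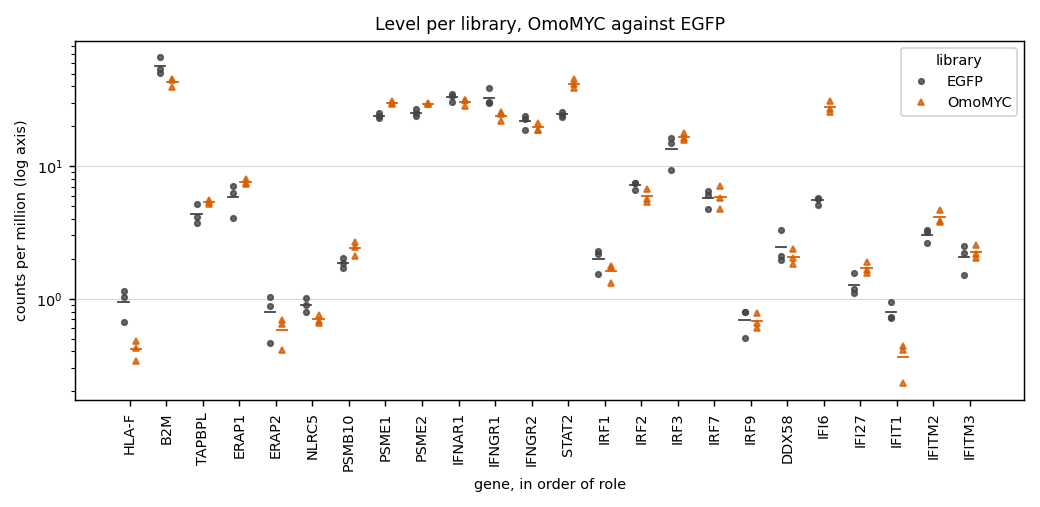
Level of each tested gene in the EGFP (grey circles) and OmoMYC (orange triangles) libraries, in CPM on a log axis with genes in the order of their roles; bars mark group means. IFI6 rises from between 5.08 and 5.75 CPM to between 25.6 and 31.1 CPM. Groups also do not overlap for 13 of the other 23 genes, against 62.3% of all tested genes.

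A wider set of 111 pathway genes outside the list gave 73 tested in OmoMYC against EGFP, of which 23 were higher, 14 were lower and 36 did not pass. Among 26 other interferon-stimulated genes tested, 8 were higher and 7 lower. These shares are near those of all tested genes, 27.3% higher and 25.7% lower, so the counts show nothing particular to these genes. Among called genes whose mean over the 6 libraries was 1 CPM or more, the 5 largest rises were LGALS3BP, a secreted glycoprotein, from 9.80 ± 1.06 to 49.2 ± 1.31 CPM (log2 fold change 2.33), the coactivator HELZ2 from 23.5 ± 2.55 to 71.9 ± 8.33 CPM (1.61), IFI27L2 from 3.78 ± 1.19 to 9.87 ± 0.0891 CPM (1.39), the transcription factor IRF5 from 0.876 ± 0.173 to 2.18 ± 0.570 CPM (1.32) and the exonuclease TREX1 from 1.57 ± 0.223 to 3.01 ± 0.215 CPM (0.93), each as mean ± SD with n = 3 and with FDRs of 3.06e-08 to 0.00142. The 5 largest falls were IFI44L from 90.9 ± 11.2 to 33.3 ± 1.42 CPM (-1.45), its relative IFI44 from 254.5 ± 38.4 to 128.8 ± 11.4 CPM (-0.98), the aminopeptidase LNPEP (-0.62), the proteasome assembly factor POMP (-0.58) and PLSCR1 (-0.51), with FDRs of 1.39e-06 to 0.00127. Of the other receptor and kinase genes, 3 of 12 tested were higher and 0 lower, and of the other IRF and NF-kB factors 5 of 8 were higher and 1 lower. The interferon ligands themselves stayed under the filter, with at most 18 counts per library for IFNL1, 7 for IFNK and 1 for IFNB1.

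In dTAG47 against DMSO, which asked whether the compound alone changes expression, no gene of the list passed. By edgeR's quasi-likelihood test 0 of 27 tested identifiers were called, with 0 at an unadjusted p under 0.05, and DESeq2 and limma-voom also called 0. The background was 0.159% of 14470 tested genes, 0.117% higher and 0.0415% lower. That background depended on the fit, with 306 genes higher and 362 lower once the replicate number was a block, and 374 and 420 with a factor for replicates 1 and 2 against 3 and 4, while 0 list genes were called in either fit. The groups overlapped for all 27, where 3.34% of all tested genes had groups that did not overlap. Log2 fold changes ran from -0.47 for ERAP2 to 0.11 for IFI6, 25 of 27 were smaller than 0.2 in size, and the 95% confidence interval lay within 1.5-fold either way for 24 of 27. The median was -0.012, against -0.0018 over all tested genes, and the median size was 0.059, against 0.062. The smallest FDR of the list was 0.673.

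The parental libraries show which class I genes the cells express where the MHC region is counted. HLA-B had 0 counts in each DMSO library and 0, 3, 1 and 0 with dTAG47. HLA-C had 3, 5, 3 and 0 counts with DMSO and 0, 12, 2 and 0 with dTAG47. HLA-E, the nonclassical chain read by NK cells, had 0 counts in each DMSO library and 2, 0, 2 and 0 with dTAG47. These chains were near 0 at a depth of 40861430 counts or more per library. The class I heavy chains are close in sequence, so counting that drops or splits shared reads makes each of these levels uncertain, and its part was not tested. HLA-F was at 1.84, 1.95, 2.20 and 2.60 CPM with DMSO and 1.72, 2.32, 2.19 and 1.93 CPM with dTAG47 (log2 fold change -0.07, interval -0.37 to 0.23). B2M was at 48.2, 46.9, 44.6 and 44.6 CPM with DMSO and 48.3, 45.1, 47.3 and 43.2 CPM with dTAG47, and its log2 fold change of -0.0040 had an interval of -0.11 to 0.10. TAPBP was at 14.9, 16.6, 16.3 and 15.3 CPM with DMSO and 15.0, 14.8, 15.3 and 15.9 CPM with dTAG47 (log2 fold change -0.05). TAP1 had a single count in 8 libraries, and TAP2 had 0 to 2 counts per library. TAP2 shares 2023 exonic bases with a second identifier of the same symbol, which had 0 counts. TAP1 shares 368 exonic bases with PSMB8-AS1. Counting that drops shared reads makes both levels uncertain, and its part was not tested. PSMB8 had a single count in 8 libraries, and PSMB9 had none. Tapasin thus had 638 to 824 counts per library, while the peptide pump and the immunoproteasome subunits PSMB8 and PSMB9, coded in the same region, were at or near the limit of detection at this depth.

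Outside the MHC region, several antiviral genes were at or near 0 in the parental cells. MX1, the guanosine triphosphatase of the interferon response, OAS1, a sensor of double-stranded RNA, and TMEM173 had 0 counts in all 8 libraries. So did PSMB9, which lies inside the region. A total of 0 allows up to 0.00781 CPM over the 384281078 counts, for counting error alone. OAS3 had 0 to 2 counts per library, IFITM1 and IFIH1 0 to 1, and ISG15 0 to 6. Interferon-stimulated genes of the wider set differed widely in level. With DMSO, IFI44 averaged 367 CPM, GBP2 350 CPM and IFI44L 157 CPM, while OASL and RTP4 had 0 counts. Per kilobase of the canonical transcript, B2M was the highest of the tested genes with DMSO, at 48.9 CPM per kb, followed by PSME2 at 21.7, PSME1 at 14.3, IFNGR2 at 13.8 and IFNGR1 at 13.4 CPM per kb. IRF3 was at 6.58, IFNAR1 at 5.62, IFI6 at 4.14 and STAT2 at 3.86 CPM per kb, and the lowest were IFIT2 at 0.189, NLRC5 at 0.223 and ERAP2 at 0.230 CPM per kb. The receptor chains and PA28 were therefore well above the transactivator and the IFIT genes on the same per-length scale.

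The genes that changed with OmoMYC did not differ detectably with dTAG47. IFI6 was at 3.50, 3.31, 3.39 and 3.24 CPM with DMSO and 3.86, 3.34, 4.10 and 3.25 CPM with dTAG47 (log2 fold change 0.11, interval -0.10 to 0.33). STAT2 was at 18.4, 16.7, 17.3 and 15.5 CPM with DMSO and 18.4, 16.4, 16.6 and 17.8 CPM with dTAG47 (0.03, interval -0.11 to 0.16). IFNGR1 was at 29.2, 28.4, 28.2 and 25.0 CPM with DMSO and 27.9, 27.2, 25.3 and 24.7 CPM with dTAG47 (-0.07, interval -0.20 to 0.05). Each of these intervals lay within 1.5-fold in either direction. PSME1 was at 13.1 to 14.9 CPM with DMSO and 13.1 to 16.7 CPM with dTAG47, and PSME2 at 16.5 to 18.8 and 16.3 to 18.7 CPM. IFIT1 was at 1.38, 1.61, 1.24 and 1.40 CPM with DMSO and 1.11, 1.76, 1.13 and 0.850 CPM with dTAG47, where the interval of -0.63 to 0.21 is wider. IFIT2 and IFIT3, tested in this table alone, had log2 fold changes of -0.0038 (interval -0.57 to 0.57) and 0.09 (interval -0.42 to 0.60).

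ERAP2 had the lowest log2 fold change with dTAG47. ERAP2 was at 1.32, 1.25, 0.951 and 1.20 CPM with DMSO and 0.894, 1.32, 0.657 and 0.541 CPM with dTAG47. The dTAG47 libraries spread from below to level with the DMSO libraries, and the log2 fold change of -0.47 (SE 0.24, interval -0.97 to 0.03) did not pass, with an FDR of 0.673. With replicates 3 and 4 alone, it was -0.86 with an adjusted p of 0.0490. Without dTAG47 replicate 2, the highest dTAG47 library, it was -0.78 with an adjusted p of 0.0776. ERAP1 was flat, at 6.37 to 7.86 CPM with DMSO and 6.23 to 7.69 CPM with dTAG47 (log2 fold change -0.01). The remaining tested genes, TAPBPL, NLRC5, PSMB10, IFNAR1, IFNGR2, IRF1, IRF2, IRF3, IRF7, IRF9, DDX58, IFI27, IFITM2 and IFITM3, had log2 fold changes from -0.16 (NLRC5) to 0.11 (PSMB10). Of the 111 wider pathway genes, 77 were tested and 0 were called by edgeR.

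**Figure D4:**
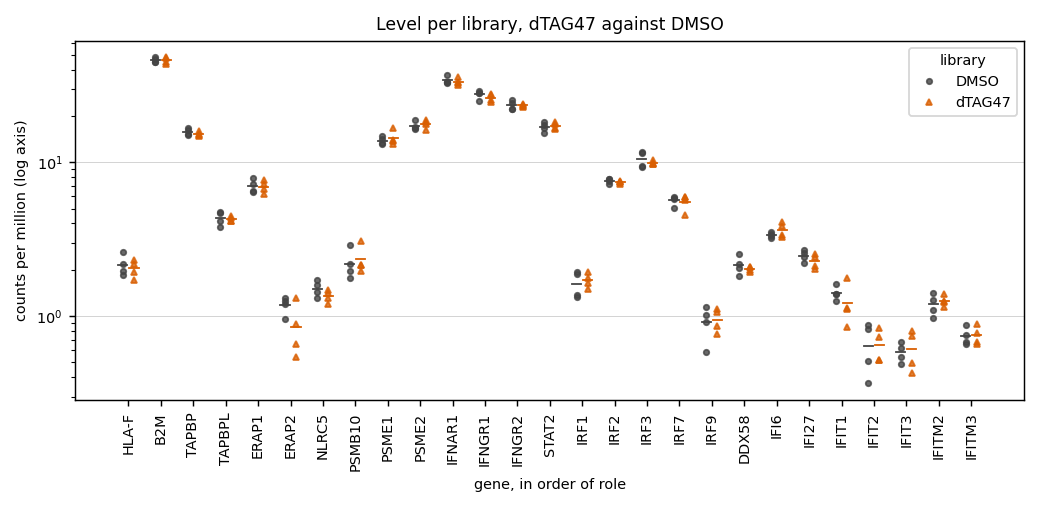
Level of each tested gene in the DMSO (grey circles) and dTAG47 (orange triangles) libraries of parental cells, in CPM on a log axis with genes in the order of their roles; bars mark group means. The 2 groups overlap for all 27 genes, and the widest spread between means is that of ERAP2, whose mean is 1.18 CPM in DMSO against 0.852 CPM in dTAG47.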

How the data were processed

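Per the authors, Cutadapt removed adapters, STAR mapped the reads on hg19 and FeatureCounts tallied them by gene; versions, annotation, strand setting and the treatment of multiply mapped reads are not given in the sources used here. The deposited values are raw counts, in 1 table per experiment. Groups came from the sample labels. Each table was fitted alone in edgeR 4.0.16 (R 4.3.3; filterByExpr, TMM factors, robust quasi-likelihood test, Benjamini-Hochberg FDR below 0.05 over all tested genes). The study used DESeq2, which was an alternative here (1.42.0) beside limma-voom (3.58.1), other factors and filters, a replicate block, summed identifiers and libraries left out in turn. The fit was tested on simulated counts of independent libraries with few changed genes. That simulation held no outlying replicate and no shared replicate effects, so it does not cover those features of these data. CPM used TMM-scaled library sizes; transcript lengths and GRCh37 positions came from GENCODE, and promoter letters from RefSeq (GRCh38.p14). The study's methods call the replicates biological; p-values measure the spread between these libraries. Intervals on a count of 0 cover counting error only. The 41 genes, the wider lists and the tests were chosen with earlier results of these data known. Libraries or role extremes were named by a rule: every heavy chain and B2M, called genes, and the highest and lowest change of each role.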

Additional observations from a re-analysis of the deposited data

Results flagged for a closer look

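Among 54 groups of 4 parental libraries, 2 had a library set apart from the other 3 by a gap test that flags about 1 in 20 groups by chance. PSME2 in DMSO replicate 3 was the highest, at 18.8 CPM with the nearest library at 16.9 CPM. IFNAR1 in DMSO replicate 2 was the highest, at 37.1 CPM with the nearest at 33.3 CPM. Neither gene was called with dTAG47.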

How the results depend on the processing

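IFI6, STAT2, PSME1, HLA-F, B2M, IFNGR1 and IFIT1 kept direction and call in every alternative in which they were tested, and no called gene changed sign. For HLA-F every alternative used the same counts of the MHC interval, so its level stays unreadable. The count of genes higher with OmoMYC fell from 5 to 3 under DESeq2 (PSME2 adjusted p = 0.0683, IFITM2 0.0562), and PSME2 was also lost with RLE factors (0.0593) and without a filter (0.0633). Leaving out 1 library gave 3 to 6 higher, 4 to 5 lower and a median log2 fold change of -0.085 to 0.070. The replicate numbers paired the libraries weakly, if at all. Same-number correlations were -0.07 to 0.29 for OmoMYC and EGFP. For dTAG47 and DMSO they were 0.0093, 0.109, 0.101 and 0.159, against a set minimum of 0.1. Different-number pairs reached 0.25 in both comparisons. Whether replicates with the same number share a batch was not tested. The replicate block gave 7 higher and 4 lower with OmoMYC, adding ERAP1 (adjusted p = 0.0155) and IRF3 (0.0154), and 0 called with dTAG47. Without EGFP replicate 1, ERAP1 (0.00660) and IFNGR2 (0.0135) passed, without EGFP replicate 3 TAPBPL (0.0209) and IRF3 (0.0250), and without OmoMYC replicate 1 IRF2 (0.0465). For dTAG47, replicates 3 and 4 alone gave 1 lower gene, ERAP2, and a median of -0.044, and leaving out 1 library gave medians of -0.063 to -0.0019. Over all genes, calls with dTAG47 moved from 17 higher and 6 lower to 43 and 16 under DESeq2, 306 and 362 with the replicate block, 374 and 420 with a factor for replicates 1 and 2 against 3 and 4, 426 and 470 with replicates 3 and 4 alone, and 4 and 3 with replicates 1 and 2 alone. Library size alone gave 11 higher, and leaving out 1 library gave 4 to 52 higher and 2 to 32 lower. The cause of these differences was not tested. Genes below 1 CPM rest on few counts per library, which limits HLA-F, IFIT1, ERAP2, NLRC5 and IRF9.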
